A study of Homo sapiens with 11 samples.

Results

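RhoGAP and RhoGEF genes were followed in AsPC-1 and PANC-1, 2 established human lines from pancreatic cancer, after small interfering RNA (siRNA) against MYEOV. The genes were taken from the 58735 Ensembl identifiers of the count tables as protein-coding genes of GENCODE release 29 whose symbol begins with ARHGAP or ARHGEF and a digit, without a hyphen, and which reached at least 1 CPM (counts scaled to a common library total) in 2 or more of the 11 libraries. Of 61 such family genes, 48 met the threshold, 24 RhoGAPs and 24 RhoGEFs. At the edge of the threshold, ARHGAP22 and ARHGAP44 were just inside, with a second-highest library at 1.17 and 1.65 CPM. ARHGAP11B and ARHGAP28 were just outside, at 0.991 and 0.963 CPM. Of the 13 genes left out, 2, ARHGAP15 and ARHGAP36, had no count in any library.

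Small GTPases such as RHOA, RAC1 and CDC42 are molecular switches that set actin assembly, contraction, adhesion and movement of the cell. RhoGEFs (guanine nucleotide exchange factors) turn them on by replacing GDP with GTP, and RhoGAPs (GTPase-activating proteins) turn them off by speeding GTP hydrolysis. In pancreatic cancer cells the pathway is best known for its part in shape, migration and invasion.

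The libraries were poly(A) RNA of AsPC-1 controls (n = 2), AsPC-1 cells with MYEOV siRNA (n = 3), PANC-1 controls (n = 3) and PANC-1 cells with MYEOV siRNA (n = 3). RNA of the siRNA groups was prepared 48 hours after transfection. The labels name the controls as wild type and without treatment, while the protocol lists a negative-control siRNA, so what the control cells received is not settled, and MYEOV siRNA and transfection itself cannot be told apart if they were untreated. The protocol lists a pair of MYEOV siRNAs, and whether library numbers mark siRNAs or repeats of 1 siRNA, or separate cultures, the sources used here do not say, so the spread behind the p-values may be technical. Although the series title speaks of knocking out MYEOV, the labels describe knockdown by siRNA.

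Totals ran from 12113093 to 15066456 counts per library. MYEOV fell in both lines, to 35.9% of control in AsPC-1 (log2 change -1.48; edgeR adjusted p = 1.95e-16) and to 54.4% in PANC-1 (log2 change -0.88; edgeR adjusted p = 4.19e-06), and the 2 falls differed by 0.59 on the log2 scale (edgeR adjusted p = 0.00153). All 5 epithelial and ductal markers were at 1 CPM or more in each group. PANC-1 control 2 stood apart from the other PANC-1 controls, with a chi-square per degree of freedom over genes of 5.97 and 4.87 against them, where the other pair gave 2.73. The biological coefficient of variation, the spread between libraries beyond counting error, was 2.77% within AsPC-1 and 6.08% within PANC-1, so smaller changes could be called in AsPC-1.

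ARHGAP1 had the largest fall of the members that passed the test in each line. It encodes a GAP that acts on CDC42 and RHOA, and lies on chromosome 11 at 46677080 to 46700615 (ENSG00000175220, minus strand, GRCh38 annotation). Its level, in CPM scaled by TMM factors over all 11 libraries, was 198 and 200 in the controls of AsPC-1, and 56.2, 58.3 and 56.4 after siRNA. This was 28.3% of control, a log2 change of -1.82 (SE 0.04; edgeR quasi-likelihood test, with adjustment by Benjamini-Hochberg: adjusted p = 6.83e-20). In PANC-1 the controls had 84.9, 74.1 and 82.1 CPM and the siRNA libraries 41.2, 42.7 and 41.3 CPM. This was 51.9% of control, a log2 change of -0.95 (SE 0.07; edgeR adjusted p = 1.13e-06). In both lines the siRNA libraries were all lower than the controls, and the siRNA libraries of a line were close to each other.

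AsPC-1 had the larger fall of ARHGAP1: the log2 changes differed by 0.86 (SE 0.08; adjusted p = 2.23e-06 in the edgeR interaction test). It was the single member called for a difference between lines, 1 of 48 tested, where 4.36% of all genes tested were called, 2.07% with the higher and 2.28% with the lower value in PANC-1. AsPC-1 also began higher: its controls held 199 ± 1.1 CPM of ARHGAP1 and those of PANC-1 80.4 ± 5.6 CPM (mean ± SD, n = 2 and 3), a log2 difference of -1.33 for PANC-1 against AsPC-1 (SE 0.07; edgeR adjusted p = 7.02e-11). After siRNA, the levels were closer, between 56.2 and 58.3 CPM in AsPC-1 and between 41.2 and 42.7 CPM in PANC-1. With ARHGAP1 counted, 8 of 48 members had an unadjusted p under 0.05 in that interaction test, as had 2813 of all 16680 genes tested. Of the other members, 7 had an unadjusted p under 0.05 for the difference and did not pass adjustment. The nearest was ARHGEF37, with a difference of 1.05 (SE 0.31; edgeR adjusted p = 0.0632), followed by ARHGEF35 (0.59, SE 0.18; edgeR adjusted p = 0.0766).

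The 3' untranslated region (UTR) of ARHGAP1 holds the 7-base word CTCATGT, which was looked for because earlier results on these data had drawn attention to it. The word was searched on the sense strand, in the longest annotated 3' UTR of a basic protein-coding transcript of each gene (GENCODE 29), and 5 of the 48 members carry it. The 5 sites are shown, 5' to 3' on the gene's strand and 30 bases each, because ARHGAP1 shares its word with members that moved little. The word is in capitals.
ARHGAP1, chr11:46677212-46677241, minus strand: atttggtctttCTCATGTcccccactggtc
ARHGAP26, chr5:143225528-143225557, plus strand: cttacctggagCTCATGTggaggaacagaa
ARHGAP42, chr11:100993831-100993860, plus strand: atgtaaataacCTCATGTttattcctaatc
ARHGAP44, chr17:12990562-12990591, plus strand: tccttggacggCTCATGTcaggtcttgcag
ARHGEF11, chr1:156935755-156935784, minus strand: ccctccaaggcCTCATGTctcctaagcatg
Outside the capitals these windows differ from each other.

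Of these carriers, ARHGAP1 was called lower in both lines and ARHGEF11, a RHOA exchange factor coupled to heterotrimeric G proteins, in AsPC-1, with a log2 change of -0.23 (SE 0.05; edgeR adjusted p = 5.84e-04) against -0.04 in PANC-1 (edgeR adjusted p = 0.737). ARHGAP26, a GAP that binds focal adhesion kinase, had log2 changes of 0.02 in AsPC-1 and -0.01 in PANC-1. ARHGAP42 had 0.06 and 0.18, and ARHGAP44 had 0.00 in PANC-1 and too few counts to be tested in AsPC-1. None of these 3 was called in either line. The shorter word TCATGT, which CTCATGT contains, was in the 3' UTR of 21 of 48 members, with 3 copies in ARHGAP1. Members called lower were 6 of 19 tested carriers of TCATGT and 2 of 24 tested members without it in AsPC-1, and 4 of 21 and 1 of 26 in PANC-1. Over all genes tested with a 3' UTR, 25.3% of TCATGT carriers and 13.0% of the others were called lower in AsPC-1, and 10.4% and 2.39% in PANC-1. Of all genes tested that have a 3' UTR in the annotation, 12.8% held CTCATGT in AsPC-1 and 12.9% in PANC-1, and 38.6% and 38.8% held TCATGT. Among them, 36.5% of CTCATGT carriers and 15.02% of the other genes were called lower in AsPC-1, and 19.6% and 3.42% in PANC-1. Because earlier results on these same data led to the word, these shares are not independent support for it. The length of the 3' UTR was not allowed for in them. A match is a description of the letters, and what acts at it was not tested.

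In AsPC-1, 15 of the 43 members tested were called, 7 higher and 8 lower in the siRNA libraries. This share, 34.9%, was near that of all genes tested, of which 32.9% were called, 16.6% higher and 16.3% lower. The median log2 change of the members was 0.00, as it was over all genes. RhoGAPs were called higher in 5 and lower in 3 of 21 tested, and RhoGEFs higher in 2 and lower in 5 of 22. In each of the 15 called members the siRNA and control libraries did not overlap. Some members not called, ARHGAP21 and ARHGEF5 among them, were also without overlap. The share over all genes is not given here, so the lack of overlap adds no support to the calls. Apart from ARHGAP1, the changes of the called members were between 0.17 and 0.80 in size on the log2 scale.

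Among RhoGAPs that fell in AsPC-1, ARHGAP17, a GAP for CDC42 and RAC1 found at tight junctions, had 86.9 and 88.9 CPM in the controls and 64.2, 66.1 and 60.2 CPM in the siRNA libraries. All 3 siRNA libraries were lower than both controls, with a log2 change of -0.48 (SE 0.05; edgeR adjusted p = 7.81e-08). ARHGAP11A, a RHOA GAP of dividing cells, went from 123 and 127 CPM to 95.9, 93.5 and 98.4 CPM, a log2 change of -0.39 (SE 0.05; edgeR adjusted p = 1.98e-07). Its copy ARHGAP11B shares 836 of the 31-base words of its transcript, which are 12.8% of the words of ARHGAP11A, so reads of the pair may be split uncertainly. ARHGAP11B had 119 counts in all 11 libraries together, against 21602 of ARHGAP11A.

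Among RhoGEFs that fell in AsPC-1, ARHGEF12, which links heterotrimeric G proteins to RHOA, had 224 and 231 CPM in the controls and 194, 190 and 193 CPM in the siRNA libraries (log2 change -0.26, SE 0.04; edgeR adjusted p = 6.16e-06). It was lower in every siRNA library, at 83.5% of the control level. ARHGEF35 went from 17.4 and 19.3 CPM to 15.3, 14.6 and 13.9 CPM (log2 change -0.34, SE 0.10; edgeR adjusted p = 0.0109). It shares 1302 of its 31-base words, 54.2% of them, with its neighbour ARHGEF5, which was not called (log2 change 0.10; edgeR adjusted p = 0.381), so the assignment of reads between them is uncertain. ARHGEF19, a RHOA exchange factor, was also lower, with a log2 change of -0.20 (edgeR adjusted p = 0.0400).

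Of the RhoGAPs that rose in AsPC-1, ARHGAP5, a p190-type RhoGAP that restrains RHOA, went from 98.2 and 96.7 CPM to 131, 118 and 127 CPM (log2 change 0.35, SE 0.05; edgeR adjusted p = 3.50e-06). ARHGAP23 went from 187 and 174 CPM to 216, 236 and 237 CPM (log2 change 0.33, SE 0.04; edgeR adjusted p = 1.90e-06). ARHGAP45, the source of a minor histocompatibility antigen, went from 72.5 and 75.9 CPM to 92.2, 97.4 and 82.8 CPM (log2 change 0.28, SE 0.06; edgeR adjusted p = 6.03e-04). In these 3 genes every siRNA library was above both controls. ARHGAP45 overlaps exons of POLR2E on the opposite strand, which had a log2 change of 0.09 (edgeR adjusted p = 0.0769), and whether counting used strand is not given. ARHGAP33 had 9.17 and 7.88 CPM in the controls and 12.3, 11 and 11.5 CPM in the siRNA libraries (log2 change 0.42, SE 0.13; edgeR adjusted p = 0.0118).

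The 2 RhoGEFs that rose in AsPC-1 were among the weaker expressed. ARHGEF17, a RHOA exchange factor, went from 14.5 and 15.04 CPM to 19.7, 22.5 and 19.3 CPM (log2 change 0.46, SE 0.10; edgeR adjusted p = 8.83e-04). ARHGEF38 had the highest log2 change, 0.80 (SE 0.23; edgeR adjusted p = 0.00822), at the lowest level, 2.65 and 2.04 CPM in the controls and 3.59, 4.35 and 4.54 CPM in the siRNA libraries. ARHGEF38 overlaps INTS12 on the opposite strand, whose log2 change was 0.03 (edgeR adjusted p = 0.847). With AsPC-1 control 2 left out, 4 of the 15 calls were lost: ARHGAP33 (edgeR adjusted p = 0.134), ARHGEF38 (0.102), ARHGEF35 (0.149) and ARHGEF19 (0.440). ARHGEF19 was also lost without siRNA library 2 (edgeR adjusted p = 0.113) or 3 (0.0792).

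Members with high levels that did not pass the test in AsPC-1 bounded the changes closely. ARHGAP18, a RHOA GAP, had a log2 change of -0.01 with a 95% interval from -0.09 to 0.07. ARHGEF2, an exchange factor held on microtubules, had -0.01 with an interval from -0.08 to 0.06. ARHGEF26, an exchange factor for RHOG, was too weakly expressed for such a bound: it had 12 counts in each control and 6, 7 and 3 counts in the siRNA libraries, with a log2 change of -1.15 (SE 0.48; edgeR adjusted p = 0.0695). The 5 members not tested in AsPC-1 were ARHGAP4, ARHGAP22, ARHGAP44, ARHGEF6 and ARHGEF25, which had between 0 and 11 counts in each library of that line.

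Markers of other cell types were listed beside these changes. Of 8 fibroblast markers 1 reached 1 CPM in AsPC-1, so their sum is mostly the level of 1 gene. It was 296 to 310 CPM in the controls and 106 to 109 CPM in the siRNA libraries. The 6 leukocyte markers summed to 31.8 to 33.0 and 30.7 to 32.7 CPM, and the 5 endothelial markers to 18.7 to 19.4 and 21.4 to 22.7 CPM. The 5 epithelial markers summed to 18050 to 18250 and 18430 to 18940 CPM. Their part in the members' changes was not tested.

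The summed level of the members stayed near that of the controls in AsPC-1. RhoGAPs other than ARHGAP1 summed to 2113 and 2048 CPM in the controls and to 2215, 2157 and 2161 CPM in the siRNA libraries. RhoGEFs summed to 1169 and 1175 CPM in the controls and to 1123, 1135 and 1122 CPM in the siRNA libraries. These sums weight long and strongly expressed genes most, and no test was made on them.

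**Figure D1:**
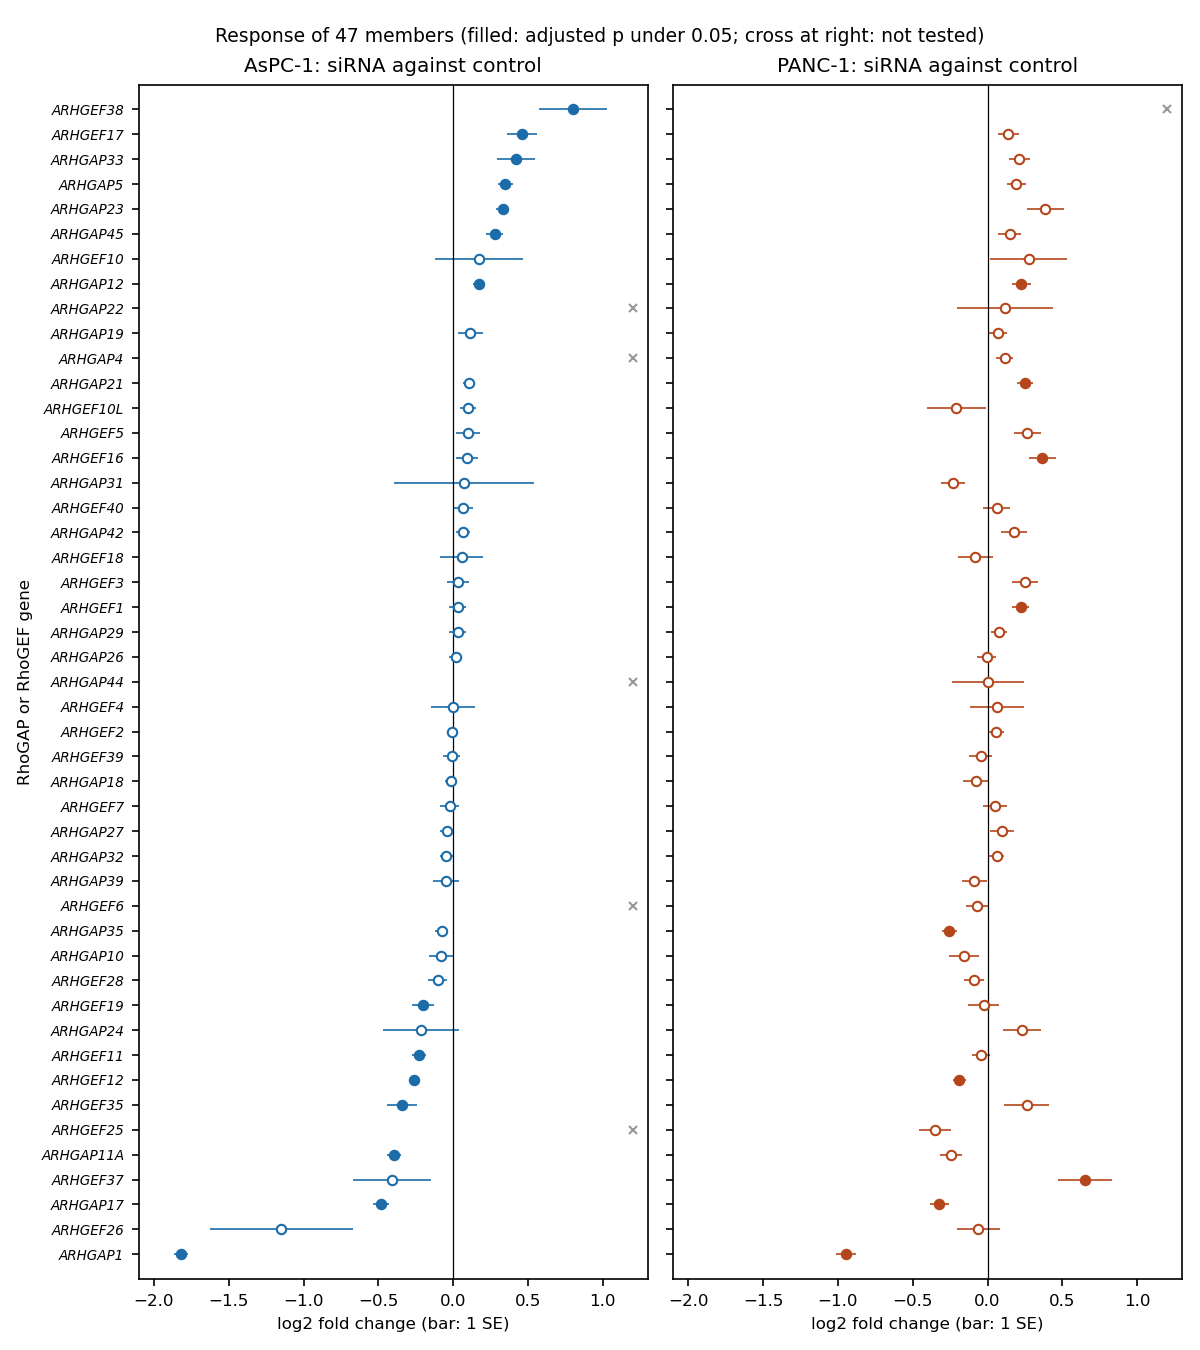
Log2 fold change of 47 members, siRNA against control, in AsPC-1 (left) and PANC-1 (right); bars are 1 SE, filled points had an edgeR adjusted p under 0.05, and crosses at the right edge mark members with too few counts to be tested. ARHGAP1 lies at -1.82 and -0.95, apart from the other called members, which lie between -0.48 and 0.80.

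In PANC-1, 10 of 47 members tested were called, 5 higher and 5 lower. This was 21.3% of the members, where 9.08% of all genes tested were called, 4.16% higher and 4.92% lower. Shares over genes of like level are not given here, so the count cannot be read as particular to the family. The median log2 change of the members was 0.06 and that of all genes 0.00. Of 24 RhoGAPs tested, 2 were higher and 3 lower. Of 23 RhoGEFs tested, 3 were higher and 2 lower. Libraries did not overlap between groups in any of the 10, nor in some members not called, such as ARHGAP11A and ARHGAP5. The share over all genes is not given here, so this adds no support to the calls. Apart from ARHGAP1 the changes of the called members were between 0.19 and 0.65 in size on the log2 scale.

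ARHGAP17 fell in PANC-1 from 84.6, 81.2 and 78.0 CPM to 69.0, 64.9 and 61.0 CPM (log2 change -0.32, SE 0.06; edgeR adjusted p = 0.00645). ARHGAP35, the other p190-type RhoGAP, had 179, 166 and 171 CPM in the controls and 146, 149 and 139 CPM in the siRNA libraries (log2 change -0.26, SE 0.05; edgeR adjusted p = 0.00788). In AsPC-1 it was not called (log2 change -0.08, SE 0.04; edgeR adjusted p = 0.195). ARHGEF12 went from 356, 355 and 347 CPM to 315, 313 and 301 CPM (log2 change -0.19, SE 0.04; edgeR adjusted p = 0.0159). Every siRNA library of these 3 genes was below all 3 controls.

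ARHGEF37 had the largest rise in PANC-1, from 3.97, 2.71 and 4.67 CPM to 6.31, 6.04 and 5.63 CPM (log2 change 0.65, SE 0.18; edgeR adjusted p = 0.0354). In AsPC-1 its log2 change was -0.41 (SE 0.26; edgeR adjusted p = 0.257), at 2.58 and 2.66 CPM in the controls. ARHGEF16, an exchange factor of the ephexin group, rose from 14.2, 13.1 and 14.6 CPM to 17.6, 17.8 and 18.7 CPM (log2 change 0.37, SE 0.09; edgeR adjusted p = 0.0209). ARHGEF1, a RHOA exchange factor that answers to G proteins as ARHGEF12 does, rose from 93.9, 84.5 and 92.6 CPM to 104, 106 and 107 CPM (log2 change 0.22, SE 0.06; edgeR adjusted p = 0.0289). ARHGAP21, a CDC42 GAP of the Golgi, rose from 126, 135 and 126 CPM to 151, 152 and 158 CPM (log2 change 0.25, SE 0.05; edgeR adjusted p = 0.00839). In AsPC-1, ARHGAP21 had a log2 change of 0.10 at an edgeR adjusted p of 0.0508, next to the threshold.

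The PANC-1 calls depended on single libraries more than those of AsPC-1. ARHGAP1, ARHGAP17, ARHGAP35 and ARHGAP21 were called whichever PANC-1 library was left out, and the other 6 were each lost in at least 2 of the 6 fits that left out 1 library, among them ARHGAP12 (edgeR adjusted p up to 0.167), ARHGEF1 (0.105), ARHGEF12 (0.0790), ARHGEF16 (0.0782) and ARHGEF37 (0.141). Without siRNA library 1 the count fell to 4, without siRNA library 3 to 5 and without siRNA library 2 to 6. Over all genes the count also fell, from 1356 to 538, 863 and 876 in these fits. ARHGAP11A, with 178, 210 and 169 CPM in the controls and 158, 149 and 163 CPM in the siRNA libraries, narrowly missed the threshold (log2 change -0.24, SE 0.07; edgeR adjusted p = 0.0502), and its highest library was PANC-1 control 2. In this line the 5 epithelial markers summed to 2261 to 2528 CPM in the controls and 1927 to 1960 CPM in the siRNA libraries, and the 8 fibroblast markers to 33.7 to 40.6 and 47.1 to 48.8 CPM. The 5 endothelial markers summed to 45.2 to 53.8 and 48.3 to 51.5 CPM, and the 6 leukocyte markers to 0.946 to 1.63 and 0.980 to 1.725 CPM. The part of these in the calls was not tested.

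The members called in both lines included ARHGAP1, ARHGAP17 and ARHGEF12, all lower, and ARHGAP12, higher. The 2 siRNA comparisons share no library. Of 42 members tested in both lines, 4 were lower in both, where 3.97% of all genes tested in both were, and 1 was higher in both, where 2.78% were. No member was called in opposite directions. The 5 are 33.3% of the members called in AsPC-1 and 50% of those called in PANC-1. Over all genes, 359 were higher and 512 lower in both lines, where the fits of the lines called 4709 genes in AsPC-1 and 1356 in PANC-1. ARHGAP12, a GAP for RAC1, had 255 and 250 CPM in the controls of AsPC-1 and 299, 277 and 287 CPM in the siRNA libraries (log2 change 0.17, SE 0.04; edgeR adjusted p = 9.02e-04). In PANC-1 it had 56.4, 60.7 and 54.9 CPM in the controls and 66.7, 64.0 and 70.3 CPM in the siRNA libraries (log2 change 0.22, SE 0.06; edgeR adjusted p = 0.0427).

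For ARHGAP17, ARHGEF12 and ARHGAP12, the difference between lines was not called, and its 95% intervals ran from -0.02 to 0.32 for ARHGAP17, from -0.06 to 0.17 for ARHGEF12 and from -0.11 to 0.19 for ARHGAP12, on the log2 scale. Over the 42 members, 30 had a log2 change of the same sign in both lines. The share over all genes is not given here, so this is not read as a trait of the family. Pearson's r between the lines was 0.60 across the 42 members and 0.32 without ARHGAP1 (n = 41). Genes of 1 library are not independent, so these are descriptions, and the correlation rests in large part on 1 gene.

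**Figure D2:**
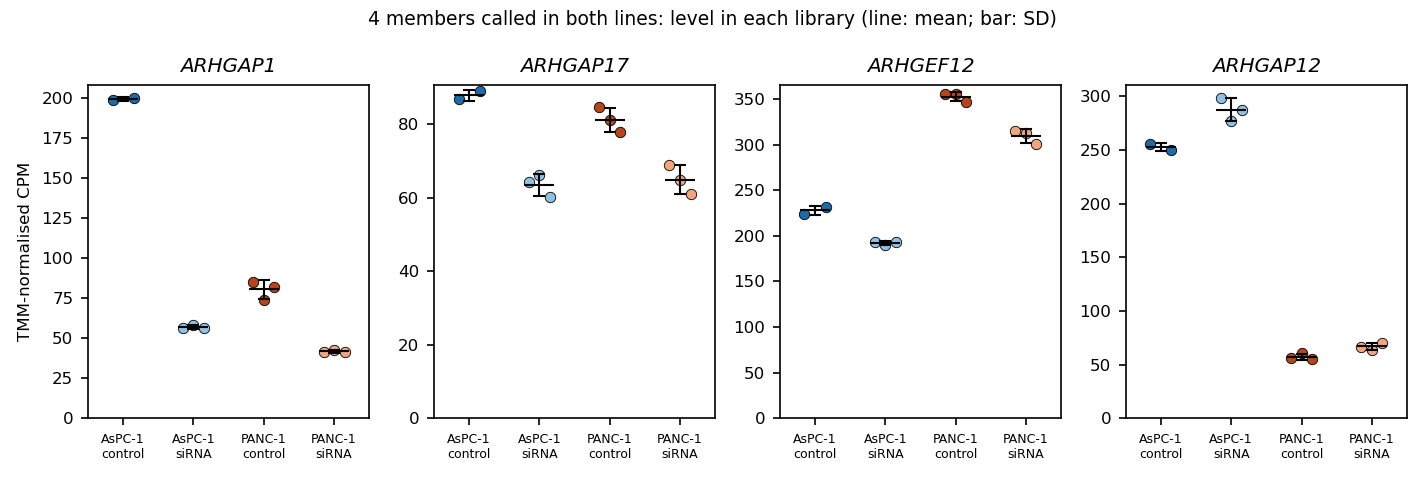
TMM-normalised CPM of 4 members called in both lines, 1 panel per gene with its own linear axis from 0; points are libraries, lines are group means and bars are SD (n = 2 AsPC-1 controls, n = 3 in the other groups). The siRNA libraries lie below the controls of their line for ARHGAP1, ARHGAP17 and ARHGEF12 and above them for ARHGAP12.

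The controls of the lines differed far more than siRNA and control within a line. Of 48 members, 42 were called between PANC-1 and AsPC-1 controls, 17 higher in PANC-1 and 25 higher in AsPC-1. This was 87.5%, where 76.4% of all genes tested were called, 40.3% higher in PANC-1 and 36.1% higher in AsPC-1. A member at 1 CPM in only 1 line passed the threshold through that line and had to differ, so its call gives no support. The 7 members of this kind were ARHGEF38, through AsPC-1, and ARHGAP4, ARHGAP22, ARHGAP44, ARHGEF6, ARHGEF25 and ARHGEF26, through PANC-1. ARHGAP31 reached 1 CPM in 1 AsPC-1 library and in 6 of PANC-1. It too met the threshold through PANC-1, and its call gives no support either. Among the 40 members at 1 CPM or more in all 11 libraries, 10 were higher in PANC-1, 24 were higher in AsPC-1 and 6 were not called, and 21 differed more than 2-fold. Shares over all genes at this level are not given here, so these counts cannot be read as particular to the family. The 6 members not called were ARHGAP17, ARHGAP39, ARHGEF11, ARHGEF18, ARHGEF28 and ARHGEF37. The lines differ in donor, culture medium and cell state, which cannot be told apart here.

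Members highest in PANC-1 relative to AsPC-1 had few or no counts in AsPC-1. ARHGEF6, an exchange factor that binds PAK kinases, had 33.9, 32.6 and 31.7 CPM in the PANC-1 controls and no count in either AsPC-1 control, which makes it at least 315-fold higher in PANC-1 when AsPC-1 is set at 3 counts over the group. ARHGAP4, known from blood cells, had 176, 152 and 168 CPM in PANC-1 and 0.758 and 0.708 CPM in AsPC-1, a 219-fold difference (log2 7.78, SE 0.15). Part of ARHGAP4, 10.4% of its exon bases, lies in exons of other genes on the same strand, NAA10 among them. In the PANC-1 controls 1 of 6 leukocyte markers reached 1 CPM, CD3E and LYZ had no count, and the 6 together summed to between 0.946 and 1.63 CPM. The sums were 31.8 and 33.0 CPM in the AsPC-1 controls, where 2 of the 6 reached 1 CPM. The part of blood cells in the level of ARHGAP4 was not tested. ARHGAP31, a GAP for CDC42 and RAC1, had 30.01, 30.1 and 30.8 CPM in PANC-1 and 0.455 and 1.15 CPM in AsPC-1, a log2 difference of 5.25 (SE 0.20). Without AsPC-1 control 2 this was 6.01, and without AsPC-1 control 1 it was 4.69.

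ARHGEF25 had 588 counts over the PANC-1 controls and 2 over the AsPC-1 controls, a ratio of 189 per total count with an exact 95% interval from 52.2 to 1567. ARHGAP44 had 64 and 2 counts, a ratio of 20.6 with an interval from 5.48 to 174, and ARHGAP22 had 40 and 0 counts, at least 8.58-fold higher in PANC-1. These intervals cover counting error only.

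Of the members highest in AsPC-1 relative to PANC-1, ARHGEF10L had 65.8 and 71.2 CPM in the AsPC-1 controls and 4.95, 3.37 and 6.05 CPM in the PANC-1 controls, a 14.3-fold difference (edgeR adjusted p = 1.13e-12). ARHGAP23 had 187 and 174 CPM against 15.3, 11.9 and 15.2 CPM, a 12.9-fold difference (edgeR adjusted p = 1.38e-14). ARHGEF38 was low in both lines, with 35 and 23 counts in AsPC-1 and 0, 4 and 4 counts in PANC-1. Its fitted log2 difference was -3.68, and -3.09 without PANC-1 control 1, and the ratio per total count was 11.3 with an exact 95% interval from 5.35 to 27.3. ARHGAP18 was 6.97-fold, ARHGAP27 4.75-fold and ARHGAP12 4.48-fold higher in AsPC-1, at 211 ± 7.1, 151 ± 3.6 and 253 ± 3.6 CPM there (mean ± SD, n = 2). ARHGEF10L and ARHGAP27 were not called after siRNA in either line, whereas ARHGAP23 and ARHGAP12 rose with siRNA in AsPC-1. ARHGAP23 had a log2 change of 0.39 in PANC-1 (SE 0.12; edgeR adjusted p = 0.0704), at 15.3, 11.9 and 15.2 CPM in the controls and 21.3, 18.3 and 15.8 CPM in the siRNA libraries.

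**Figure D3:**
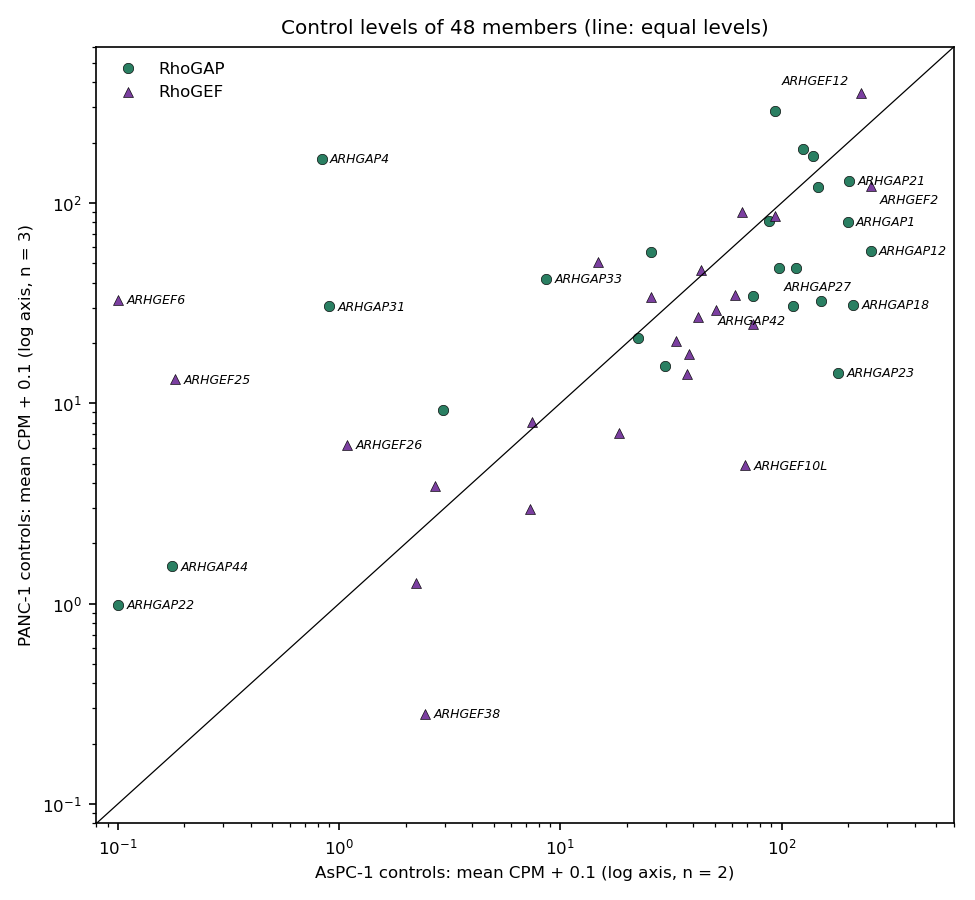
Mean TMM-normalised CPM plus 0.1 of the 48 members in AsPC-1 controls (x axis, n = 2) and PANC-1 controls (y axis, n = 3), both axes logarithmic; circles are RhoGAPs, triangles RhoGEFs and the line marks equal levels. ARHGEF6, ARHGAP4, ARHGEF25 and ARHGAP31 lie at the upper left, and ARHGEF10L, ARHGAP23 and ARHGAP18 at the lower right.

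Levels between genes were compared as RPKM, the same scaled CPM divided by the kilobases of exon of the gene. In AsPC-1 controls ARHGAP18 led with 45.5 ± 1.5 RPKM (mean ± SD, n = 2), followed by ARHGAP12 with 42.5 ± 0.61, ARHGAP1 with 32.4 ± 0.18, ARHGEF2 with 27.9 ± 0.16 and ARHGAP23 with 22.2 ± 1.1. In PANC-1 controls ARHGAP4 with 29.7 ± 2.1 RPKM (n = 3) and ARHGAP11A with 28.9 ± 3.4 led and lay within their spread of each other, followed by ARHGAP29, a RHOA GAP, with 18.6 ± 1.4, ARHGAP35 with 15.3 ± 0.58 and ARHGEF12 with 14.5 ± 0.20. ARHGAP1 was the third of the members in AsPC-1 controls and number 7 in PANC-1 controls, at 13.1 ± 0.92 RPKM. The leading 5 of the lines had no gene in common. Levels of ARHGEF18 and ARHGEF10 are the least certain, since 76.4% and 59.5% of their exon bases lie in exons of another gene on the same strand and how such reads were counted is not given.

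Other genes of the pathway were described in 6 lists of 134 genes chosen with earlier results of these data known. List medians of the log2 change lay between -0.07 (small GTPases) and 0.12 (GDIs) in AsPC-1 and between -0.04 (DOCK) and 0.13 (small GTPases) in PANC-1, where the medians of all genes were 0.00. The called shares of the lists stand against 32.9% of all genes tested in AsPC-1 and 9.08% in PANC-1. Shares over genes of like level are not given here, so a higher share cannot be read as particular to a list. Among the small GTPases, 2 were higher and 2 lower of 17 tested in AsPC-1 (23.5% called), and 1 higher and none lower of 17 in PANC-1 (5.88%), both below these shares. RHOA had a log2 change of 0.05 in AsPC-1 (edgeR adjusted p = 0.295) and 0.14 in PANC-1 (edgeR adjusted p = 0.0512). RAC1 fell in AsPC-1, from 662 and 622 CPM to 600, 598 and 608 CPM (log2 change -0.11; edgeR adjusted p = 0.0111), had 0.13 in PANC-1 (edgeR adjusted p = 0.112), and differed between the lines by 0.22 (edgeR adjusted p = 0.0411). The call in AsPC-1 was lost without AsPC-1 control 1 (edgeR adjusted p = 0.253), and that of the difference in 8 of the 11 fits that left out a library (edgeR adjusted p up to 0.280). CDC42 could not be read: it was listed at 0.521 to 2.17 CPM, and 57.1% of its exon bases lie in same-strand exons of AL031281.2. RHOBTB1 (-0.94; edgeR adjusted p = 0.0128) and RAC2 (0.26; edgeR adjusted p = 0.0487) were the largest calls in AsPC-1, and RHOD (0.32; edgeR adjusted p = 0.0336) the single call in PANC-1. All 3, and RHOD in AsPC-1, were lost in at least 1 fit that left out a library.

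Of the 2 GDIs (dissociation inhibitors) tested, which hold the GTPases in the cytosol, none was called in AsPC-1 and ARHGDIA was higher in PANC-1 (0.21; edgeR adjusted p = 0.0252). RhoGAPs under other symbols were higher in 3 and lower in 4 of 24 tested in AsPC-1 (29.2% called, against 32.9% of all genes), with STARD8, a RHOA GAP of the DLC group, falling from 16.8 and 15.8 CPM to 9.95, 11.2 and 10.5 CPM (log2 change -0.65; edgeR adjusted p = 4.28e-05). CHN2, a RAC GAP, had 0.65 (edgeR adjusted p = 0.0311). In PANC-1, OCRL, a phosphoinositide phosphatase with a GAP-like domain, was the 1 call of 24, or 4.17% (0.18; edgeR adjusted p = 0.0374). ARHGDIA and OCRL in PANC-1 and CHN2 in AsPC-1 were each lost in at least 1 fit without a library.

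Dbl-type RhoGEFs under other symbols were called in 17 of 26 tested in AsPC-1, 9 higher and 8 lower, and in 5 of 31 in PANC-1, 4 higher and 1 lower. These are 65.4% and 16.1%, against 32.9% and 9.08% of all genes. MCF2L rose in AsPC-1 from 12.2 and 14.2 CPM to 26.3, 23.1 and 20.6 CPM (log2 change 0.81; edgeR adjusted p = 2.69e-06), and FGD4, a CDC42 exchange factor, fell (-0.46; edgeR adjusted p = 1.45e-06). PLEKHG4 rose in PANC-1 from 11.3, 9.82 and 10.9 CPM to 16.4, 15.9 and 14.4 CPM (log2 change 0.54; edgeR adjusted p = 0.00430) and had 0.44 in AsPC-1 (edgeR adjusted p = 0.0110), where the call was lost in some fits without a library. PLEKHG1 had 0.48 in PANC-1 (edgeR adjusted p = 0.0217), likewise lost. DOCK exchange factors, a separate family of RAC and CDC42 activators, were higher in 2 of 7 in AsPC-1, DOCK9 among them (0.26; edgeR adjusted p = 2.71e-04), and in 1 of 9 in PANC-1. These are 28.6% and 11.1%, near the 32.9% and 9.08% of all genes.

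Effectors, the proteins that bind the active GTPases, were higher in 12 and lower in 7 of 32 tested in AsPC-1, and higher in 5 and lower in 2 of 33 in PANC-1. These are 59.4% and 21.2% called, against 32.9% and 9.08% of all genes. PAK2, a kinase activated by RAC1 and CDC42, fell in both lines, and the 95% interval of the difference between lines ran from -0.14 to 0.14 on the log2 scale. It went from 221 and 210 CPM to 154, 150 and 146 CPM in AsPC-1 (log2 change -0.54; edgeR adjusted p = 8.65e-11) and from 330, 382 and 353 CPM to 249, 245 and 246 CPM in PANC-1 (log2 change -0.52; edgeR adjusted p = 3.44e-05). WASF1, which drives branched actin assembly below RAC1, rose in AsPC-1 from 20.0 and 21.9 CPM to 31.2, 35.8 and 34.0 CPM (log2 change 0.67; edgeR adjusted p = 8.80e-07) and had -0.08 in PANC-1 (edgeR adjusted p = 0.537), a difference of -0.76 (edgeR adjusted p = 3.16e-04). CDC42EP3 rose in AsPC-1 (0.64; edgeR adjusted p = 0.00144). CDC42BPG, a kinase related to ROCK, rose in AsPC-1 (0.59; edgeR adjusted p = 4.69e-06). It had 0.49 in PANC-1 (edgeR adjusted p = 0.0245), where the call was lost in some fits without a library.

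**Figure D4:**
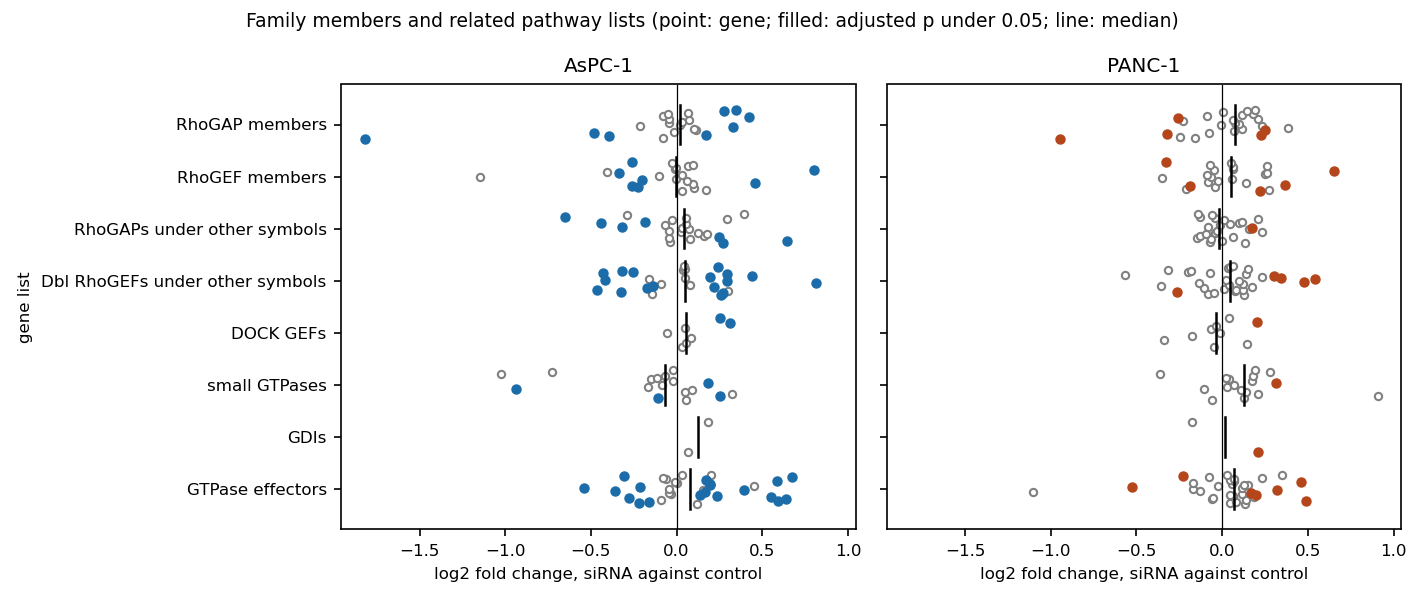
Log2 fold change of every tested gene of the RhoGAP and RhoGEF members and of the 6 further pathway lists, siRNA against control, in AsPC-1 (left) and PANC-1 (right); each point is a gene, filled points had an edgeR adjusted p under 0.05 and short lines are list medians. The points of each list lie on both sides of 0, apart from the GDIs in AsPC-1, and ARHGAP1 at -1.82 and -0.95 is the lowest called gene of both panels.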

How the data were processed

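For each library the authors deposited a table of raw read counts per gene, as whole numbers. Per the submitters' processing notes, HISAT2, HTSeq and the build hg19 were used, in versions not given in the sources used here. Libraries were paired reads of 150 bases from poly(A) RNA, per the labels' protocols. All 58735 identifiers occur in GENCODE 29, a GRCh38 annotation, which gave names, positions and transcript sequences. Rows naming no gene numbered 0.

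Members and lists were chosen with earlier results of these data known. Within a line, siRNA and control were compared over the whole table, on the libraries of that line, by the two-sided quasi-likelihood test of edgeR 4.0.16 (R 4.3.3; filterByExpr and TMM factors, then glmQLFit and glmQLFTest), with p-values adjusted by Benjamini-Hochberg and called under 0.05. The difference between lines used 1 fit over 4 groups, and the control comparison the controls alone. SE is the absolute log2 fold change divided by the square root of F. Libraries of a group differed beyond counting noise, so no library was counted as a duplicate. The fits were tested on simulated counts. The alternatives tried were 2 other scalings (RLE, upper quartile), filtering at 5 CPM or not at all, DESeq2 1.42.0, a fit that takes in all groups, a replicate block, and leaving out each library.

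The genes named follow a rule: ARHGAP1; the 6 largest called rises and falls per line; members called in both lines or for their difference; the 6 most different in each direction between controls; and up to 2 called genes per pathway list. Some genes that the rule takes are counted but their own values are not shown here. RHOA, RAC1, CDC42, PAK2 in AsPC-1, RHOD in AsPC-1, PLEKHG4 in AsPC-1, CDC42BPG in AsPC-1 and the uncalled members ARHGAP18, ARHGEF2, ARHGEF26, ARHGEF10 and ARHGEF18, and ARHGEF19, were named after their values were seen. Tables and figures used Python 3.11.15, numpy 2.4.6, pandas 2.3.3, scipy 1.17.1 and matplotlib 3.10.9.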

Additional observations from a re-analysis of the deposited data

Results flagged for a closer look

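The response of ARHGAP1 differed between the lines: the log2 change in PANC-1 was higher than that in AsPC-1 by 0.86 (edgeR interaction test, adjusted p = 2.23e-06). Both were falls, to 28.3% of control in AsPC-1 (3 of 3 siRNA libraries below both controls) and to 51.9% in PANC-1 (3 of 3 below all controls). MYEOV itself also had the larger fall in AsPC-1, with log2 changes that differed by 0.59, and the part of that difference in the response of ARHGAP1 was not tested.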

How the results depend on the processing

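In AsPC-1 the count of called members, 15, lay between 11 and 16 over all alternatives, and in the control comparison, with 42, between 38 and 43. In PANC-1 the count of 10 rose to 16 with 1 fit over all groups, and leaving out each library in turn gave 4 to 11. The count over all genes in PANC-1 moved too, from 1356 to 1975 with 1 fit over all groups. With a library left out it was 538 to 1712. For the difference between lines the count of 1 became 3 without a low-count filter, and 1 to 3 with a library left out, 3 of them without PANC-1 control 2. DESeq2 called 11, 9, 1 and 41 members in the 4 comparisons. Over all genes it called 3177, 1143, 634 and 11333, against 4709, 1356, 727 and 12370 in the main fits. ARHGAP1 was called in every alternative for both lines (log2 fold change from -1.84 to -1.81 and from -1.001 to -0.91) and for their difference (0.83 to 0.90). None of the results for which alternatives were run changed direction while called. Leaving out an AsPC-1 control leaves 1, which is then assumed to vary like the siRNA libraries.

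Same-numbered libraries did not deviate together (correlations of -0.03 and -0.01 in AsPC-1 and of -0.02, -0.41 and -0.11 in PANC-1), so the numbers were not taken as pairs. The deviations of the 2 AsPC-1 controls mirror each other by construction, so the AsPC-1 values say little on pairing. In PANC-1, libraries of different number ran from -0.37 (control 1 and siRNA 3) to 0.37 (control 1 and siRNA 2, and control 2 and siRNA 3). The source of these correlations was not tested. With the replicate block the counts were 14 in AsPC-1 and 4 in PANC-1, and 4260 and 628 over all genes. Depth limits the members with few counts, such as ARHGEF38 and ARHGEF26.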
